A study of Arabidopsis thaliana with 6 samples.

Results

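Seedlings of Arabidopsis thaliana that expressed JcERFVII2 with its own N-terminus (MC-Line3) were compared with wild-type seedlings of the ecotype Col-0. The comparison took 4 of the 6 RNA-seq libraries of the study, 2 from MC-Line3 and 2 from Col-0, chosen by genotype alone, and is described over the 21206 of 28775 counted genes that passed a filter on low counts. JcERFVII2 is a group VII ethylene response factor of Jatropha curcas (physic nut), a woody oil plant, and the study asked how the N-terminus of this protein bears on the genes it regulates in air. MC-Line3 was made in Col-0 with a CaMV 35S promoter, which is active in most tissues, on a T-DNA that also carries hygromycin resistance, and was kept as a homozygous line with 1 insertion. The other pair of libraries came from MA-Line1, made the same way, in which alanine replaces the cysteine after the first methionine. Each form was profiled in 1 line, so effects of the form, of its expression level and of the insertion site cannot be told apart. All libraries came from polyA RNA of whole seedlings grown in air on plates and collected after 16 h of light. Their age was 10 d by the sample labels and younger by the published methods, and the MC columns of the count table carry another line number than the labels. JcERFVII2 is not among the genes counted, so the transgene could not be checked in these libraries.

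Group VII factors are transcription activators of the plant response to low oxygen. In air, the methionine is removed, the exposed cysteine is oxidized by plant cysteine oxidases, and the protein is then arginylated, ubiquitinated and degraded, so that the factor accumulates when oxygen runs short. A protein that starts with methionine and alanine does not enter this route. The forms differ in the second codon, shown here in capitals at the start of the coding sequence. TGC encodes cysteine in the MC form and GCC alanine in the MA form. The letters are those of the forward cloning primers for the study's in vitro protein expression plasmids, not for the plasmids that made the plant lines.
MC-JcERFVII2: atgTGCggaggtgctattatttc
MA-JcERFVII2: atgGCCggaggtgctattatttc

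The libraries held 53084008 to 65271057 counts on genes. Levels are given as CPM (counts scaled to a common library size, with the TMM method), first for both MC-Line3 libraries and then for both Col-0 libraries. Differences are log2 fold changes of MC-Line3 over Col-0 with their standard error. A gene is called upregulated or downregulated where edgeR's quasi-likelihood test gave a Benjamini-Hochberg adjusted p below 0.05. In all, 6618 genes were called (31.2% of those tested), 3077 upregulated (14.5%) and 3541 downregulated (16.7%). These shares are the background against which each group of genes is read. The median size of the change among called genes was 0.50 on the log2 scale, and 1052 passed 2-fold, 283 upregulated (1.33%) and 769 downregulated (3.63%). The study, with edgeR at a false discovery rate below 0.05, reported far fewer genes for MC-Line3, and the reason was not tested. With library size alone as the scaling, 5371 genes were upregulated and 2358 downregulated, and the median over all genes was 0.14 instead of 0.01. Leaving out MC-Line3 replicate 1 or 2 lowered the count of genes called to 4359 and 3536. The groups did not overlap in 64.6% of all genes tested and in 6617 of the 6618 called. The libraries of Col-0 differed more from each other than those of MC-Line3, with an SD of the log2 difference over genes of 0.335 in MC-Line3 and 0.397 in Col-0. Of the 3541 downregulated genes 2197 were higher in Col-0 replicate 2 than in replicate 1. The number is given below with some of the groups in which this share was larger. Other groups also had a larger share, among them jasmonate outputs (5 of 5), jasmonate catabolism (5 of 7) and salicylic acid genes (8 of 12). So did ubiquitin ligases and touch sensors (4 of 5 each), dehydration and cold genes (9 of 13) and cytochrome P450 genes (44 of 65). The part of this shift in the results was not tested. The p-values measure the spread between these libraries, which the series describes as independent biological replicates.

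**Figure D1:**
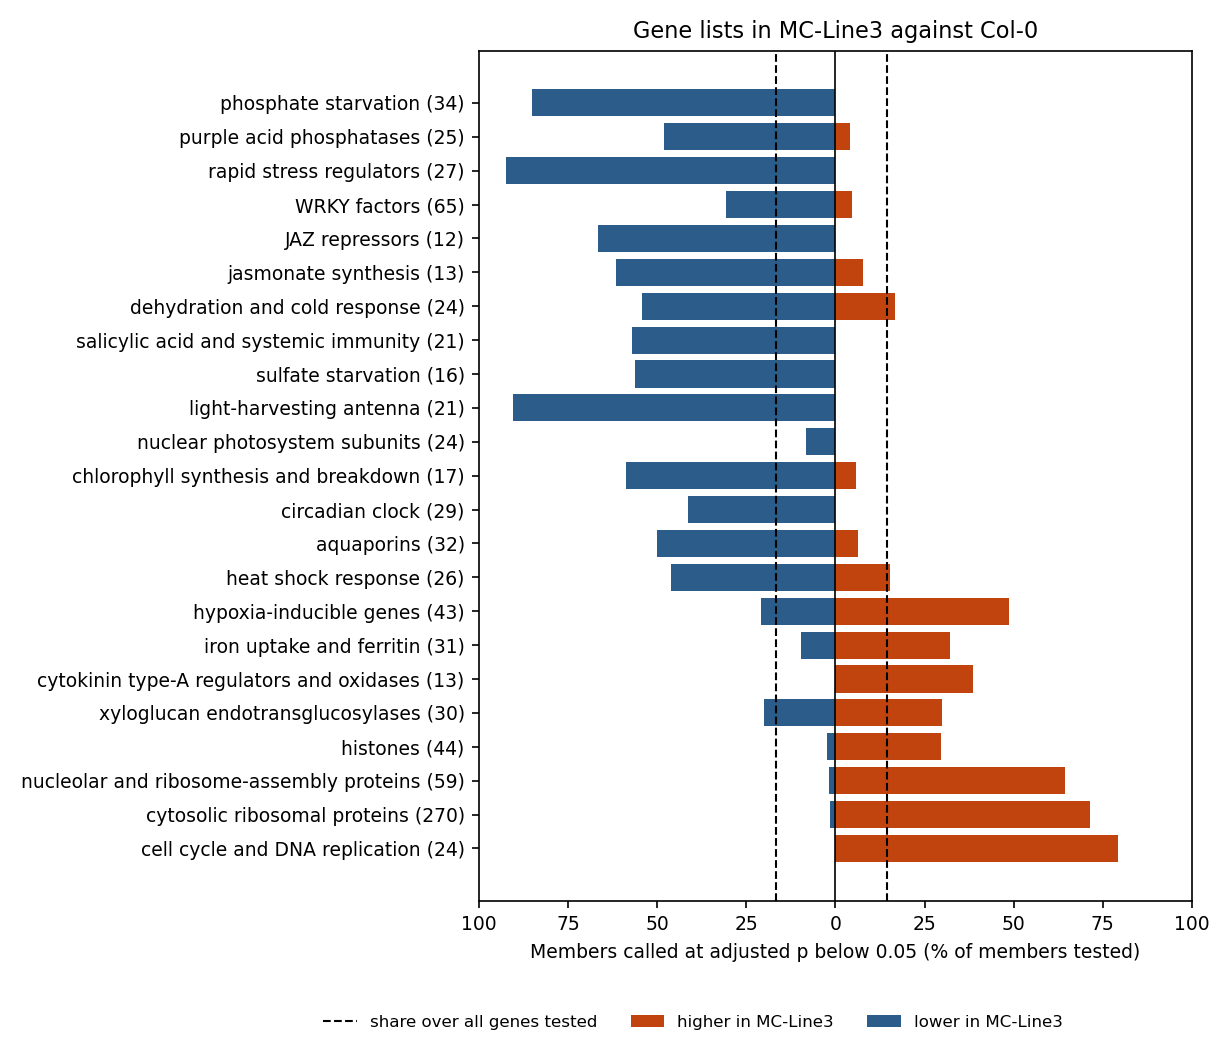
Share of the tested members of each gene list (their number in brackets) called higher (right) or lower (left) in MC-Line3 than in Col-0, in percent; dashed lines mark the shares over all genes tested, 14.5% and 16.7%. Phosphate starvation genes, rapid stress regulators and antenna genes lie far to the left, and cell cycle, ribosomal and nucleolar genes far to the right.

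Genes of the phosphate starvation response were far lower in MC-Line3. Plants sense phosphate through inositol pyrophosphates bound by SPX proteins, which hold back the factor PHR1. When phosphate falls, PHR1 activates transporters, secreted phosphatases, enzymes that replace phospholipids by galactolipids and sulfolipids, and the RNAs IPS1 and AT4, which block microRNA399. In MC-Line3, 29 of 34 tested members of this list were downregulated and 0 were upregulated, with a median log2 fold change of -2.57 (-2.45 with library size alone). Of these, 24 passed 2-fold, and the median of the downregulated members was 7.62-fold lower. The summed level of the list was 1067 and 1000.4 CPM in the MC-Line3 libraries, against 2909.9 and 4011 CPM in the Col-0 libraries.

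SPX3 (AT2G45130), a phosphate sensor that restrains PHR1, had 0.481 and 0.300 CPM in the MC-Line3 libraries, against 26.4 and 43.3 CPM in the Col-0 libraries. Its log2 fold change was -6.48 ± 0.30 (SE) (edgeR quasi-likelihood test, adjusted p = 1.8e-07). PPsPase1 (AT1G73010), which splits pyrophosphate and releases phosphate, had 2.02 and 1.84 CPM in MC-Line3, against 130.3 and 204 CPM in Col-0, a log2 fold change of -6.44 ± 0.22 (SE). In both genes each MC-Line3 library was below each Col-0 library by more than an order of magnitude. MGD3 (AT2G11810), which makes galactolipids that replace phospholipids, had 0.740 and 0.495 CPM in MC-Line3, against 40.8 and 62.0 CPM in Col-0 (log2 fold change -6.38 ± 0.25 (SE)). IPS1 (AT3G09922), a decoy RNA for microRNA399, had 1.74 and 1.70 CPM in MC-Line3, against 63.5 and 104 CPM in Col-0 (log2 fold change -5.61 ± 0.26 (SE)), and the related RNA AT4 (AT5G03545) had 56.3 and 48.1 CPM in MC-Line3, against 392 and 643 CPM in Col-0 (log2 fold change -3.31 ± 0.19 (SE)). SPX1, another sensor, had 38.0 and 39.0 CPM in MC-Line3, against 241 and 402 CPM in Col-0, a log2 fold change of -3.06 ± 0.19 (SE). These genes were low in both MC-Line3 libraries, and in each the Col-0 replicate 2 was the highest of the 4.

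The precursor MIR399d, which gives the microRNA that these decoys bind, had 0 and 2 counts in MC-Line3, against 364 and 552 counts in Col-0. It was downregulated (edgeR quasi-likelihood test, adjusted p = 4.8e-07), and no fold is given because 1 MC-Line3 library had no count. Transporters were lower too. PHT1;4, a high-affinity phosphate importer of the root, had 21.2 and 19.8 CPM in MC-Line3, against 86.9 and 126 CPM in Col-0 (log2 fold change -2.38 ± 0.15 (SE)). PHT1;1 also fell (log2 fold change -1.26 ± 0.11 (SE)), but 49.9% of its 31-base words occur elsewhere in the genome, so reads of close copies could count on it. G3Pp3, annotated as a transporter of the major facilitator superfamily, had no count in MC-Line3 and 1.27 and 2.60 CPM in Col-0, at least 35.6-fold lower in MC-Line3 with a floor of 3 counts per library.

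Among the lipid genes, SQD2, which completes the sulfolipid, had 55.4 and 55.9 CPM in MC-Line3, against 254 and 383 CPM in Col-0, a log2 fold change of -2.52 ± 0.15 (SE). The galactolipid synthase MGD2 (log2 fold change -3.47 ± 0.18 (SE)), the glycerophosphodiester phosphodiesterase GDPD1 (-3.13 ± 0.13 (SE)) and the phosphatase PEPC1 (-4.91 ± 0.20 (SE)), which acts on phosphoethanolamine and phosphocholine, were also downregulated. Purple acid phosphatases, which release phosphate from organic compounds, fell in 12 of 25 cases and rose in 1, a list added after the values of this comparison were seen. Of the 12, 11 were higher in Col-0 replicate 2 than in replicate 1. The 1 rise was lost without MC-Line3 replicate 1 or 2, Col-0 replicate 2 or either MA-Line1 library. PAP14 had 0.0185 and 0.177 CPM in MC-Line3, against 15.1 and 22.2 CPM in Col-0. PAP25 had no count in MC-Line3 and 1.00 and 1.47 CPM in Col-0, at least 22.8-fold lower in MC-Line3. PAP5 had 1 count in each MC-Line3 library, and its CPM in Col-0 was 8.32 and 12.9. PAP17, a phosphatase of the starvation and senescence responses, had 26.2 and 22.0 CPM in MC-Line3, against 124 and 173 CPM in Col-0 (log2 fold change -2.62 ± 0.15 (SE)). The constitutive PAP26 was not called, with 224 and 207 CPM in MC-Line3, against 248 and 242 CPM in Col-0.

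Some other members of the list showed small differences, unlike the regulators SPX1, SPX3, IPS1 and AT4 above. PHR1 itself had 67.4 and 65 CPM in MC-Line3, against 56.9 and 58.4 CPM in Col-0 and missed the threshold (edgeR quasi-likelihood test, adjusted p = 0.051). PHO2, the ubiquitin-conjugating enzyme that microRNA399 targets, had 84.3 and 83.1 CPM in MC-Line3, against 87.0 and 99.8 CPM in Col-0 and was not called, nor were SPX4 and the ubiquitin ligase NLA. PHO1, which loads phosphate into the xylem, was downregulated with a log2 fold change of -0.21 ± 0.07 (SE), a call lost without any 1 library but Col-0 replicate 1, among them without MC-Line3 replicate 1 (-0.25) or 2 (-0.19). All 29 downregulated members were higher in Col-0 replicate 2 than in Col-0 replicate 1, a direction shared by 51.7% of all genes tested. Between 28 and 31 members were downregulated when 1 library of any genotype was left out.

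**Figure D2:**
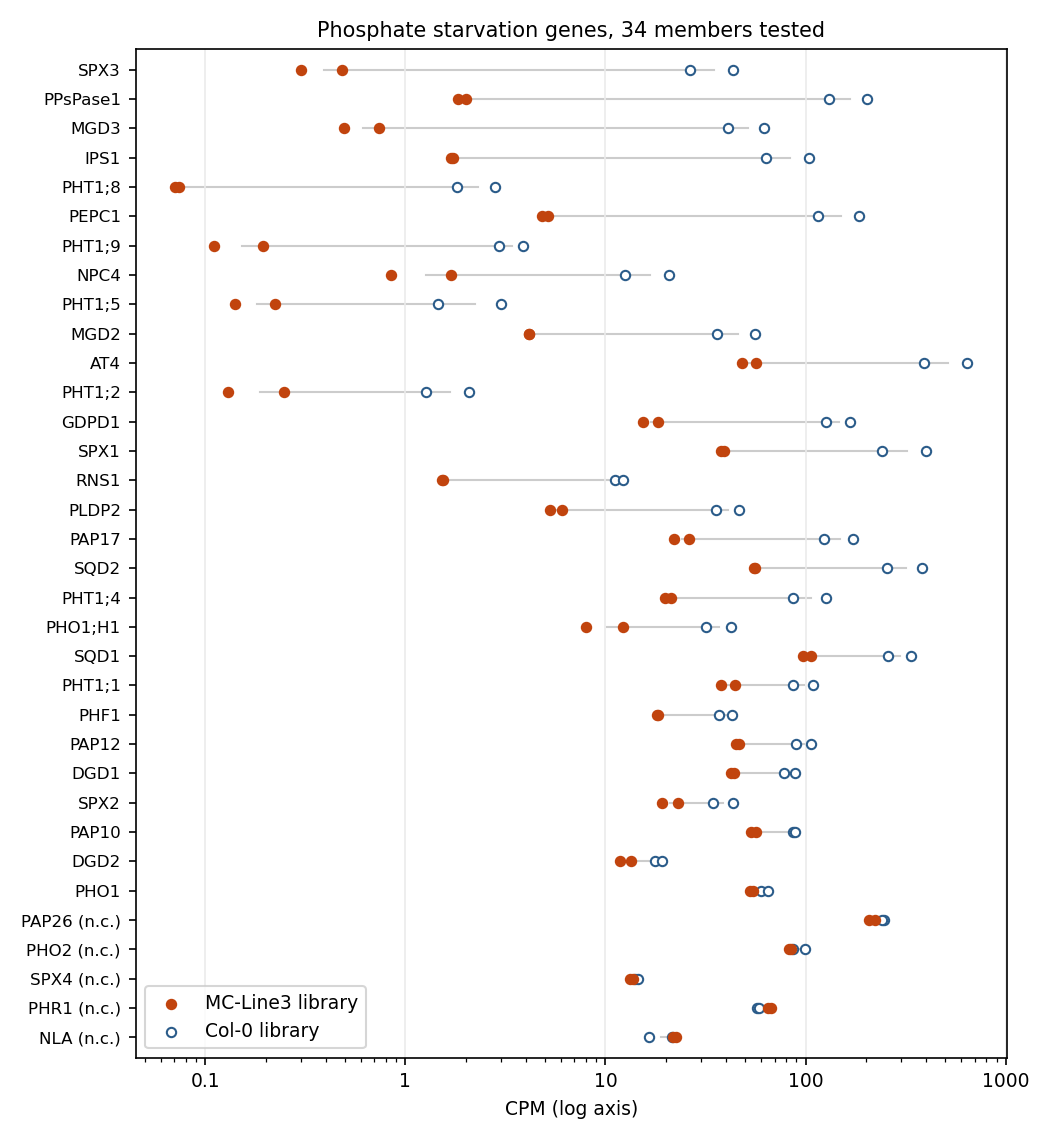
CPM (log axis) of the 34 tested phosphate starvation genes in each MC-Line3 library (filled) and each Col-0 library (open), sorted by fold change, with a grey line between the group means; n.c. marks genes not called. SPX3 lies at 0.481 and 0.300 CPM in MC-Line3 against 26.4 and 43.3 CPM in Col-0, and the genotypes come together in the 5 genes not called at the bottom.

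PHR1 binds the palindrome P1BS, GNATATNC. The letters were searched on both strands in the 500 bases before each annotated gene start (RefSeq, TAIR10.1). They occurred in 14 of 34 windows of the phosphate list (41.2%), in 12 of 29 of its downregulated genes, in 2 of its 5 genes not called, and in 10.9% of all 21057 windows. Among purple acid phosphatases, 8 of 25 windows held them. The 250 bases before the start of 3 strongly downregulated genes are shown because each holds P1BS, in capitals: SPX3 (chr2:18606160-18606409, plus strand), PPsPase1 (chr1:27466349-27466598, minus strand) and GDPD1 (chr3:350011-350260, minus strand). A match describes the letters and does not show binding.
SPX3: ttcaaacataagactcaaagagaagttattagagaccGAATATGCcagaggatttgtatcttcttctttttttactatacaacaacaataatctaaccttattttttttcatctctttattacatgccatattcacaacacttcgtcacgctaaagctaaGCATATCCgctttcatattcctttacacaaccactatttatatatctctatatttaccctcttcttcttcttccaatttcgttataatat
PPsPase1: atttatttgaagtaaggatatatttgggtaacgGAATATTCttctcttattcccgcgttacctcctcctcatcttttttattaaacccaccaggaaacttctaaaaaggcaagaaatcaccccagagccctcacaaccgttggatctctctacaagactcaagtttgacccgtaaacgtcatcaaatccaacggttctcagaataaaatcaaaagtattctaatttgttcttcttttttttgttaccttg
GDPD1: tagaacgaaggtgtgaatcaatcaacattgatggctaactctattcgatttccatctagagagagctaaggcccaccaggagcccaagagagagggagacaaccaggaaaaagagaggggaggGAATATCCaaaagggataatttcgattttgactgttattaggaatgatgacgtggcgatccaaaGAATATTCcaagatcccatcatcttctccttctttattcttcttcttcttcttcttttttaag

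Transcription regulators that respond within minutes to wounding, cold, touch or pathogens formed another group that was low in MC-Line3. Of these rapid stress regulators 25 of 27 were downregulated and 0 were upregulated, with a median log2 fold change of -2.08 (-1.95 with library size alone), and 23 passed 2-fold. RRTF1 (AT4G34410), an ethylene response factor of redox and wound signalling, had 0.351 and 0.212 CPM in MC-Line3, against 37.8 and 43.7 CPM in Col-0, a log2 fold change of -7.17 ± 0.25 (SE) (edgeR quasi-likelihood test, adjusted p = 5.4e-08). It was nearly silent in both MC-Line3 libraries. DDF1, a factor of the dehydration-responsive CBF type, had 1 and 4 counts in MC-Line3, against 270 and 312 counts in Col-0. ERF13 had 2.05 and 1.41 CPM in MC-Line3, against 15.8 and 22.7 CPM in Col-0 (log2 fold change -3.48 ± 0.22 (SE)), and the repressor ERF11 had 4.57 and 4.65 CPM in MC-Line3, against 38.8 and 49.6 CPM in Col-0 (log2 fold change -3.26 ± 0.13 (SE)). Each of these was lower in both MC-Line3 libraries than in either Col-0 library, and the groups were apart in 6617 of the 6618 genes called.

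Zinc finger regulators fell as well. ZAT10, a repressor of the response to abiotic stress, had 30.9 and 31.1 CPM in MC-Line3, against 198 and 225 CPM in Col-0, a log2 fold change of -2.77 ± 0.08 (SE). SZF1, a CCCH zinc finger protein induced by salt and by flagellin, had 88.7 and 82.5 CPM in MC-Line3, against 415 and 467 CPM in Col-0 (log2 fold change -2.36 ± 0.08 (SE)). Of the cold factors, CBF2 fell (log2 fold change -2.59 ± 0.11 (SE)), whereas CBF3 had 0.721 and 0.530 CPM in MC-Line3, against 0.633 and 0.986 CPM in Col-0 and was not called. ZAT11 was not called either, and its Col-0 libraries differed (1.65 and 1.70 CPM in MC-Line3, against 1.02 and 2.86 CPM in Col-0).

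All 5 ubiquitin ligases of rapid stress were downregulated, among them PUB23 (24.0 and 21.1 CPM in MC-Line3, against 90.5 and 99.6 CPM in Col-0, log2 fold change -2.07 ± 0.09 (SE)) and PUB22 (10.5 and 7.76 CPM in MC-Line3, against 34.4 and 35.4 CPM in Col-0, log2 fold change -1.93 ± 0.13 (SE)), which restrain immune and drought signalling. ATL31, a ligase of the carbon and nitrogen response, had 21.6 and 18.8 CPM in MC-Line3, against 72.2 and 69.3 CPM in Col-0 (log2 fold change -1.81 ± 0.08 (SE)). All 5 touch-inducible calcium sensors were downregulated as well. CML37 had 1.61 and 1.34 CPM in MC-Line3, against 10.5 and 12.3 CPM in Col-0 (log2 fold change -2.95 ± 0.16 (SE)), and TCH2, an early touch gene, had 56.1 and 48.9 CPM in MC-Line3, against 127 and 156 CPM in Col-0 (log2 fold change -1.43 ± 0.11 (SE)). Over the family of calmodulin-like sensors 8 of 13 were downregulated and 0 upregulated, and 7 of these were higher in Col-0 replicate 2 than in replicate 1.

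Among WRKY transcription factors, a family of defence and stress regulators, 20 of 65 were downregulated (11 with library size alone, 13 without MC-Line3 replicate 1) and 3 upregulated (5 with library size alone or without Col-0 replicate 1). WRKY40 had 20.7 and 21.9 CPM in MC-Line3, against 111 and 144 CPM in Col-0, a log2 fold change of -2.58 ± 0.12 (SE). WRKY46 (-2.18 ± 0.14 (SE)) and WRKY33 (-1.49 ± 0.09 (SE)) were also lower; WRKY33 is needed for the synthesis of the phytoalexin camalexin. WRKY18, which pairs with WRKY40, went the other way with 50.1 and 51.3 CPM in MC-Line3, against 34.1 and 38.7 CPM in Col-0 (log2 fold change 0.48 ± 0.08 (SE)). Of the downregulated rapid stress regulators 22 of 25 were higher in Col-0 replicate 2 than in replicate 1. Either 25 or 26 were downregulated with any 1 library left out.

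**Figure D3:**
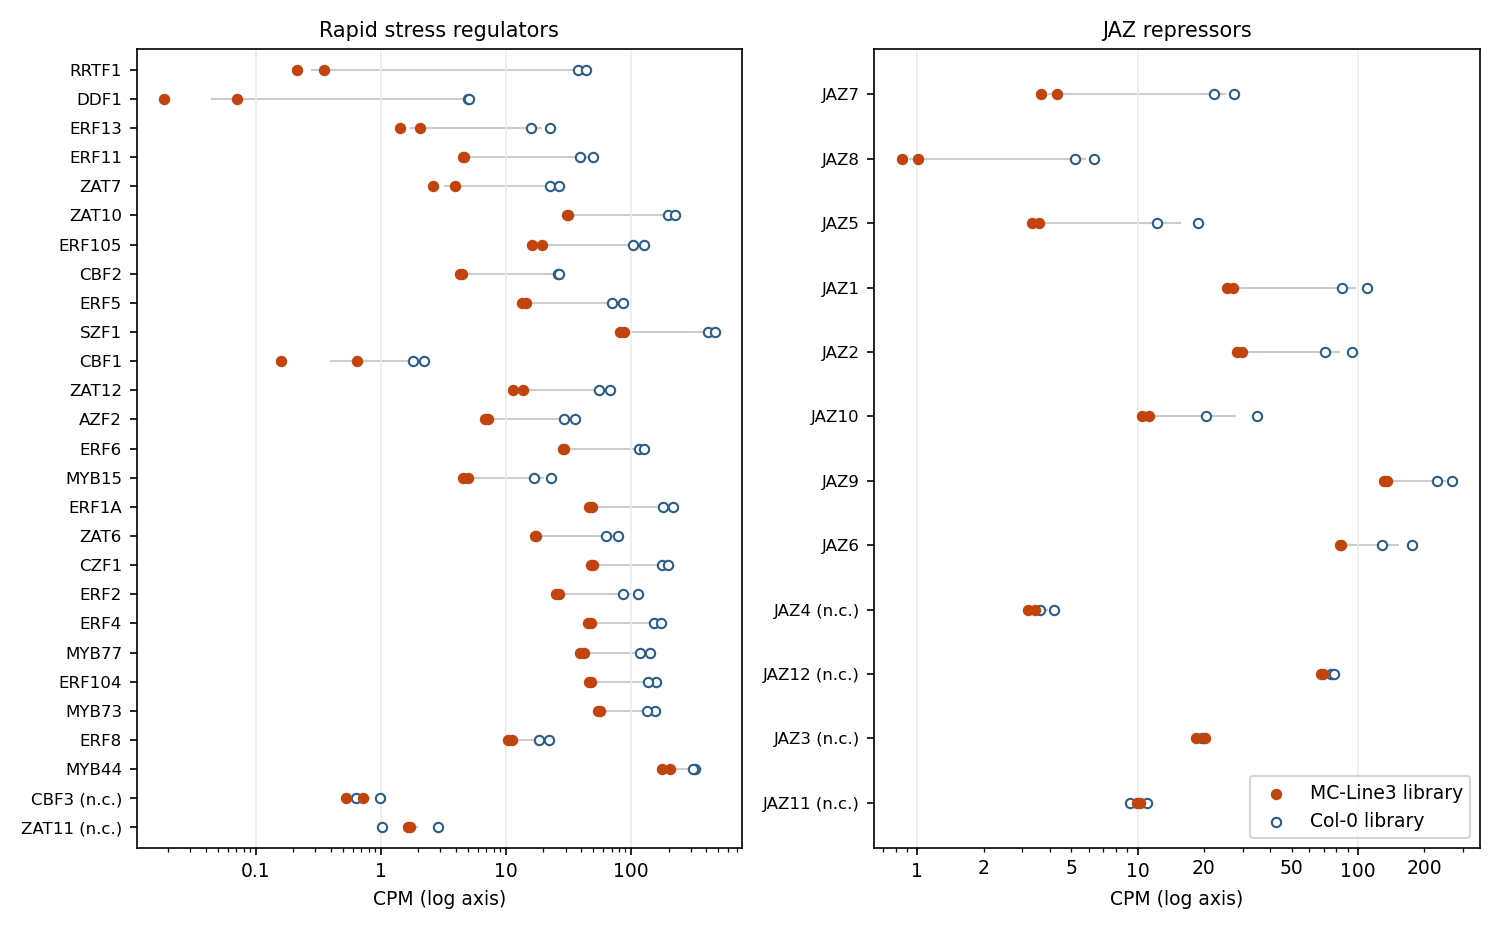
CPM (log axis) of the rapid stress regulators (left) and JAZ repressors (right) in each MC-Line3 library (filled) and each Col-0 library (open), sorted by fold change; n.c. marks genes not called. RRTF1 lies at 0.351 and 0.212 CPM in MC-Line3 against 37.8 and 43.7 CPM in Col-0, and 25 of 27 regulators and 8 of 12 JAZ genes were downregulated.

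Jasmonate is the hormone of wounding. Its active form, jasmonoyl-isoleucine, triggers the breakdown of JAZ repressors and so frees MYC2, and MYC2 in turn activates JAZ genes and genes of jasmonate synthesis and breakdown. Of the JAZ repressors 8 of 12 were downregulated and 0 upregulated, with a median log2 fold change of -1.12 (-0.99 with library size alone). JAZ7 (AT2G34600) had 3.63 and 4.31 CPM in MC-Line3, against 22.2 and 27.5 CPM in Col-0, a log2 fold change of -2.65 ± 0.14 (SE) (edgeR quasi-likelihood test, adjusted p = 4.5e-07). JAZ8 (-2.63 ± 0.22 (SE)), JAZ5 (-2.18 ± 0.19 (SE)) and JAZ1 (-1.89 ± 0.11 (SE)) followed. JAZ3, JAZ4, JAZ11 and JAZ12 were not called. MYC2 had 57.1 and 54.3 CPM in MC-Line3, against 236 and 311 CPM in Col-0 (log2 fold change -2.29 ± 0.12 (SE)). In every downregulated JAZ gene, and in MYC2, both MC-Line3 libraries lay below both Col-0 libraries. The groups were apart in this way in 6617 of the 6618 genes called.

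In synthesis, 8 of 13 genes were downregulated, 7 of them higher in Col-0 replicate 2 than in replicate 1. The lipoxygenase LOX3 had 17.1 and 17.5 CPM in MC-Line3, against 46.3 and 56.5 CPM in Col-0, a log2 fold change of -1.57 ± 0.10 (SE), and the allene oxide cyclase AOC3 had 10.9 and 11.4 CPM in MC-Line3, against 25.6 and 36.3 CPM in Col-0 (log2 fold change -1.47 ± 0.14 (SE)). LOX2, the chloroplast lipoxygenase of wounded leaves, was the 1 upregulated member, with 246 and 229 CPM in MC-Line3, against 139 and 157 CPM in Col-0 (log2 fold change 0.68 ± 0.08 (SE)). Of the enzymes that inactivate jasmonates 7 of 9 were downregulated (4 with library size alone and 3 without MC-Line3 replicate 2), led by the oxidases CYP94B3 (0.555 and 0.371 CPM in MC-Line3, against 3.24 and 4.73 CPM in Col-0, log2 fold change -3.11 ± 0.30 (SE)) and CYP94C1 (-2.15 ± 0.15 (SE)). Among outputs, ERF1, which joins ethylene and jasmonate signals, had 0.573 and 0.830 CPM in MC-Line3, against 2.70 and 4.1 CPM in Col-0 (log2 fold change -2.27 ± 0.27 (SE)), whereas ORA59 and VSP2 were not called. All 8 downregulated JAZ genes were higher in Col-0 replicate 2 than in replicate 1. The count of 8 was the same with any 1 library left out.

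The G-box CACGTG, which MYC2 and many other factors bind, occurred on both strands, being its own complement, in 6 of 12 JAZ windows of 500 bases and in 10.2% of all windows. The 250 bases before JAZ7 (chr2:14572780-14573029, plus strand) are shown because they hold 1 G-box, in capitals.
JAZ7: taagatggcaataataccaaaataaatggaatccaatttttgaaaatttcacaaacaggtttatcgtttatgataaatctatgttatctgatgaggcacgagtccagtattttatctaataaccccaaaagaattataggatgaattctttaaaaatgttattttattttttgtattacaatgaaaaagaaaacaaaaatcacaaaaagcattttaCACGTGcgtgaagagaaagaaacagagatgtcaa

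In the abscisic acid pathway, the clade A PP2C phosphatases, which block the signal and are themselves induced by it, were downregulated in 6 of 7 cases, all 6 higher in Col-0 replicate 2 than in replicate 1. HAI1 had 5.70 and 5.48 CPM in MC-Line3, against 19.0 and 28.1 CPM in Col-0, a log2 fold change of -2.08 ± 0.17 (SE), and ABI1 had 60.6 and 60.1 CPM in MC-Line3, against 115 and 136 CPM in Col-0 (log2 fold change -1.05 ± 0.09 (SE)). Of the PYR/PYL receptors 0 of 9 were called by edgeR, with 2 at an unadjusted p below 0.05 and 0 called by DESeq2. Genes of the dehydration and cold response were downregulated in 13 of 24 cases (54.2%, against 16.7% of all genes tested). Another 4 were upregulated (16.7%), near the share over all genes tested (14.5%). The dehydrin RAB18 had 26.0 and 26.0 CPM in MC-Line3, against 75.8 and 100.2 CPM in Col-0 (log2 fold change -1.76 ± 0.13 (SE)), and GOLS2, which makes galactinol, had 1.96 and 1.43 CPM in MC-Line3, against 6.05 and 9.97 CPM in Col-0 (log2 fold change -2.24 ± 0.27 (SE)). CYP707A3, which breaks down abscisic acid, had 7.47 and 6.63 CPM in MC-Line3, against 26.4 and 32.1 CPM in Col-0 (log2 fold change -2.06 ± 0.12 (SE)). Among the upregulated members were cold-induced genes. COR15A, a chloroplast protein that protects membranes from freezing, had 25.3 and 21.6 CPM in MC-Line3, against 7.26 and 7.21 CPM in Col-0, a log2 fold change of 1.70 ± 0.12 (SE), and its neighbour COR15B had 6.55 and 6.84 CPM in MC-Line3, against 1.86 and 0.614 CPM in Col-0 (log2 fold change 2.46 ± 0.36 (SE)). KIN2 rose as well (log2 fold change 0.80 ± 0.09 (SE)), while RD29A was not called, with 16.5 and 14.7 CPM in MC-Line3, against 17.3 and 11.8 CPM in Col-0.

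Genes of salicylic acid and systemic immunity were downregulated in 12 of 21 cases and upregulated in 0, with a median log2 fold change of -0.47 (-0.34 with library size alone). FMO1, which makes the mobile signal N-hydroxypipecolic acid, had 0.851 and 0.760 CPM in MC-Line3, against 3.39 and 3.38 CPM in Col-0 (log2 fold change -2.07 ± 0.20 (SE)). PBS3, which acts in salicylic acid synthesis, had 2.18 and 1.93 CPM in MC-Line3, against 5.14 and 8.32 CPM in Col-0 (log2 fold change -1.72 ± 0.22 (SE)), and CBP60g, a factor that drives that synthesis, had 12.2 and 12.7 CPM in MC-Line3, against 29.8 and 34.3 CPM in Col-0 (log2 fold change -1.36 ± 0.09 (SE)). Sulfate starvation genes were downregulated in 9 of 16 cases, 7 of them higher in Col-0 replicate 2 than in replicate 1, and upregulated in 0. The beta-glucosidase BGLU28 had 1.63 and 1.31 CPM in MC-Line3, against 3.03 and 5.24 CPM in Col-0 (log2 fold change -1.5 ± 0.26 (SE)), and APR1, which reduces activated sulfate, had 103 and 96.4 CPM in MC-Line3, against 154 and 180.1 CPM in Col-0 (log2 fold change -0.75 ± 0.09 (SE)). In ethylene synthesis the enzymes moved apart. ACS6, an ACC synthase of stress, had 31.5 and 30.5 CPM in MC-Line3, against 171 and 219 CPM in Col-0, a log2 fold change of -2.65 ± 0.11 (SE), whereas the ACC oxidase ACO1 had 13.9 and 13.6 CPM in MC-Line3, against 5.95 and 6.08 CPM in Col-0 (log2 fold change 1.19 ± 0.13 (SE)).

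Genes of the protein synthesis machinery rose by a small amount. Of 270 tested genes whose annotation names a cytosolic ribosomal protein, 193 were upregulated and 4 downregulated, with a median log2 fold change of 0.38 (0.51 with library size alone). The median over all genes was 0.01. The summed level of these genes was 39089 and 40455 CPM in the MC-Line3 libraries, against 32573 and 29871 CPM in the Col-0 libraries. AT5G56710, a protein of the L31e family, had 231 and 231 CPM in MC-Line3, against 137 and 123 CPM in Col-0, a log2 fold change of 0.82 ± 0.08 (SE) (edgeR quasi-likelihood test, adjusted p = 2.7e-05). AT5G20160 and AT4G12600, both of the L7Ae family, rose by 0.85 and 0.83 on the log2 scale. AT5G40040, an acidic 60S protein, had the steepest rise of the list but a low level, with 0.666 and 1.02 CPM in MC-Line3, against 0.0930 and 0.113 CPM in Col-0. The 4 downregulated entries, AT3G14595, AT1G53560, AT3G01170 and AT1G68660, numbered 2 without MC-Line3 replicate 2 and with library size alone, and carry family names (L18ae, L34e and L12/ClpS adaptor) that need not mark a ribosome subunit.

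Proteins of the nucleolus and of ribosome assembly, a list added after the values of this comparison were seen, were raised too, with 38 of 59 upregulated and 1 downregulated and a median of 0.40 (0.53 with library size alone). FIB2, the fibrillarin that methylates ribosomal RNA, had 42.5 and 49.9 CPM in MC-Line3, against 24.1 and 18.7 CPM in Col-0, a log2 fold change of 1.11 ± 0.12 (SE). AT5G48240, an Rrp15p protein by its annotation, had 25.3 and 23.0 CPM in MC-Line3, against 12.6 and 9.37 CPM in Col-0 (log2 fold change 1.14 ± 0.13 (SE)), and HDA3, a nucleolar histone deacetylase, had 51.1 and 60.8 CPM in MC-Line3, against 27.9 and 25.8 CPM in Col-0 (log2 fold change 1.06 ± 0.09 (SE)). Of the upregulated genes, 164 of 193 ribosomal and 31 of 38 nucleolar genes were lower in Col-0 replicate 2 than in replicate 1, against 1793 of all 3077 upregulated genes. With 1 library left out, 123 to 204 ribosomal and 27 to 40 nucleolar genes were upregulated, the lowest count of ribosomal genes being without MC-Line3 replicate 2.

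Site II, TGGGCC on either strand, occurred in 133 of 270 ribosomal windows of 500 bases (49.3%), in 22 of 59 nucleolar windows (37.3%) and in 20.0% of all windows. The telo box AAACCCTA occurred in 15.2% of the ribosomal windows and in 6.49% of all. The 250 bases before AT5G56710 (chr5:22944994-22945243, minus strand) are shown because they hold site II once on each strand, in capitals.
AT5G56710: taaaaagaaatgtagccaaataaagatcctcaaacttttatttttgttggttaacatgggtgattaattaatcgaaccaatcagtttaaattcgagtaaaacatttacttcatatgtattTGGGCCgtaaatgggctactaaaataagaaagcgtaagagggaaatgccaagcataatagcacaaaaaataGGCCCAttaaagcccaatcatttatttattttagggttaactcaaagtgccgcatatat

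**Figure D4:**
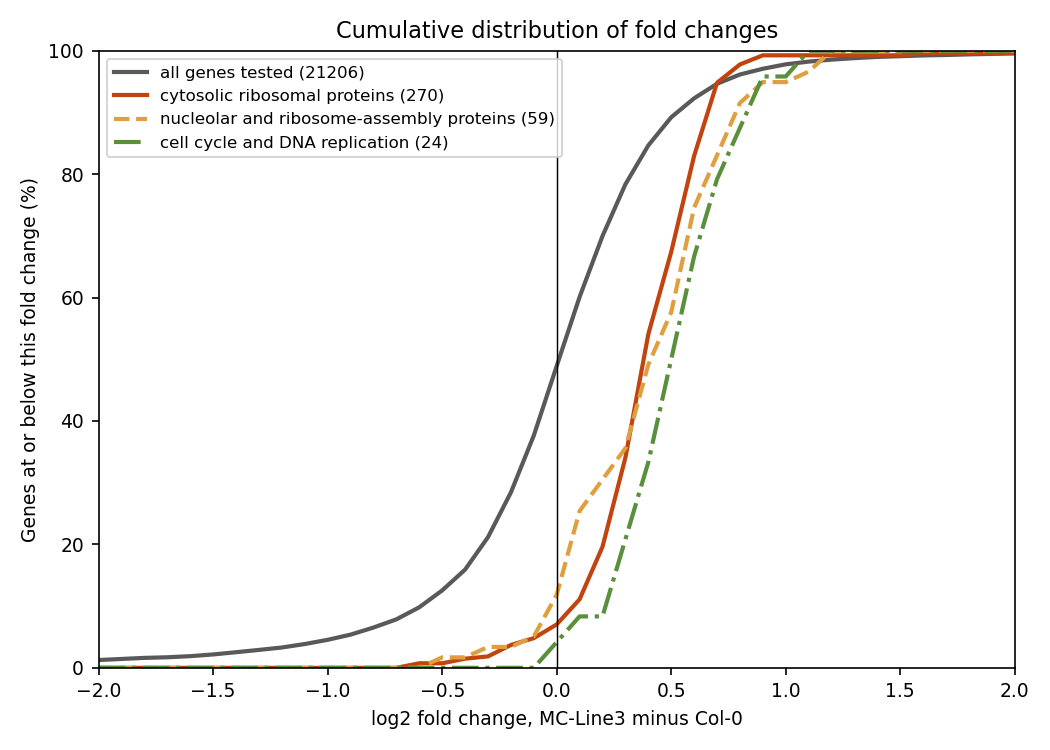
Cumulative share of genes (percent) at or below each log2 fold change of MC-Line3 over Col-0, for all 21206 genes tested and for 3 gene lists. The curves of the ribosomal (median 0.38), nucleolar (0.40) and cell cycle (0.49) genes lie to the right of the curve of all genes (median 0.01).

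Most cell division genes measured here were raised. Of the tested genes of the cell cycle and DNA replication 19 of 24 were upregulated and 0 downregulated, with a median of 0.49 (0.61 with library size alone). CYCB1;1, a mitotic cyclin, had 5.92 and 6.24 CPM in MC-Line3, against 2.98 and 2.84 CPM in Col-0, a log2 fold change of 1.06 ± 0.15 (SE) (edgeR quasi-likelihood test, adjusted p = 0.00047), and it was the 1 member past 2-fold. The mitotic kinases CDKB1;1 (9.23 and 8.13 CPM in MC-Line3, against 5.55 and 4.01 CPM in Col-0) and AUR1 (11.4 and 11.5 CPM in MC-Line3, against 6.92 and 5.77 CPM in Col-0) rose by 0.86 and 0.85 on the log2 scale. Of the 19 upregulated members 14 were lower in Col-0 replicate 2 than in replicate 1. Leaving out 1 library gave 10 to 17 upregulated members, with 10 without MC-Line3 replicate 2 and 11 without MC-Line3 replicate 1. Histones, which are needed as DNA is copied, were upregulated in 13 of 44 cases (26 with library size alone, 7 without MC-Line3 replicate 1 and 5 without MC-Line3 replicate 2), among them HIS4 (39.3 and 41.4 CPM in MC-Line3, against 27.0 and 26.4 CPM in Col-0, log2 fold change 0.60 ± 0.08 (SE)), and HIS1-3, a linker histone of the drought response, was downregulated (20.1 and 16.8 CPM in MC-Line3, against 25.4 and 36.1 CPM in Col-0, log2 fold change -0.74 ± 0.16 (SE)), a call lost without MC-Line3 replicate 2 (-0.62).

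Cytokinin promotes cell division in the shoot, and its type-A response regulators are induced by it and dampen it. Of the cytokinin list 5 of 13 genes were upregulated (3 without either MC-Line3 library) and 0 downregulated. ARR7 had 25.8 and 23.3 CPM in MC-Line3, against 9.68 and 9.32 CPM in Col-0, a log2 fold change of 1.37 ± 0.10 (SE), and ARR6 had 20.2 and 19.2 CPM in MC-Line3, against 9.27 and 9.28 CPM in Col-0 (log2 fold change 1.09 ± 0.10 (SE)). CYP735A2, which makes the cytokinin trans-zeatin, had 6.62 and 6.70 CPM in MC-Line3, against 1.62 and 2.18 CPM in Col-0 (log2 fold change 1.8 ± 0.20 (SE)). In these genes both MC-Line3 libraries lay above both Col-0 libraries, and the groups were apart in 6617 of the 6618 genes called.

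Of the xyloglucan endotransglucosylases 9 of 30 were upregulated, 6 of them past 2-fold, and 6 were downregulated, but 2 with library size alone, 3 without MC-Line3 replicate 1 and 1 without MC-Line3 replicate 2. These enzymes cut and rejoin xyloglucan of the cell wall. XTH9 had 219 and 197 CPM in MC-Line3, against 88.2 and 82.7 CPM in Col-0 (log2 fold change 1.28 ± 0.08 (SE)), and XTH33 had 5.70 and 4.52 CPM in MC-Line3, against 1.17 and 0.566 CPM in Col-0 (log2 fold change 2.57 ± 0.31 (SE)). Among alpha-expansins, which loosen the wall, 3 of 17 rose (6 with library size alone, 1 without either MC-Line3 library) and 3 fell. Each is 17.6%, near the shares over all genes tested (14.5% upregulated and 16.7% downregulated). EXPA15 had 27.4 and 27.2 CPM in MC-Line3, against 15.5 and 18.1 CPM in Col-0, and EXPA8 had 34.4 and 31.3 CPM in MC-Line3, against 59.9 and 66.9 CPM in Col-0. RGL3, a repressor of gibberellin responses, had 6.10 and 5.09 CPM in MC-Line3, against 12.3 and 15.8 CPM in Col-0 (log2 fold change -1.33 ± 0.16 (SE)).

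Part of the iron list rose. Iron-deficient roots acidify the soil, reduce iron with FRO2 and import it with IRT1 under the factor FIT (listed as FRU), while 4 related basic helix-loop-helix factors of subgroup Ib and small peptides respond in shoot and root. Of 31 tested iron genes 10 were upregulated and 3 downregulated. Of the upregulated genes 9 passed 2-fold, with all 4 factors of subgroup Ib among them. BHLH39 had 5.40 and 5.51 CPM in MC-Line3, against 2.12 and 1.2 CPM in Col-0 (log2 fold change 1.73 ± 0.27 (SE)), and BHLH38 had 5.24 and 3.59 CPM in MC-Line3, against 1.62 and 0.356 CPM in Col-0 (2.18 ± 0.50 (SE)). BHLH100 had 3.63 and 2.90 CPM in MC-Line3, against 1.25 and 0.517 CPM in Col-0 (1.90 ± 0.39 (SE)), and BHLH101 had 4.01 and 3.37 CPM in MC-Line3, against 2.01 and 0.517 CPM in Col-0 (1.57 ± 0.44 (SE)). The calls of BHLH38 (1.88) and BHLH101 (1.43) were lost without MC-Line3 replicate 1, and that of BHLH101 also without MC-Line3 replicate 2 (1.69 on the log2 scale). The peptide gene AT1G47395 had 7.77 and 6.15 CPM in MC-Line3, against 1.67 and 1.1 CPM in Col-0 (log2 fold change 2.33 ± 0.24 (SE)), and CYP82C4, which makes the iron-binding coumarin sideretin, had 1.05 and 1.2 CPM in MC-Line3, against 0.149 and 0.0970 CPM in Col-0 (log2 fold change 3.19 ± 0.53 (SE)), with 22.1% of its 31-base words found elsewhere in the genome.

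IRT1, FRO2 and FIT were not called. IRT1 had 2.96 and 2.93 CPM in MC-Line3, against 5.92 and 1.29 CPM in Col-0, FRO2 had 2.61 and 1.11 CPM in MC-Line3, against 5.41 and 2.23 CPM in Col-0, and FIT had 4.61 and 4.42 CPM in MC-Line3, against 4.45 and 3.30 CPM in Col-0. The ferritins FER3 and FER4, which store iron, were downregulated, FER3 with 31.7 and 33.6 CPM in MC-Line3, against 47.5 and 48.3 CPM in Col-0 (log2 fold change -0.55 ± 0.07 (SE)). The call of FER4 (-0.31 ± 0.08 (SE)) was lost without MC-Line3 replicate 2 (-0.23). All 10 upregulated iron genes were lower in Col-0 replicate 2 than in replicate 1. With 1 library left out, 7 to 14 were upregulated, and downregulated members numbered 1 without MC-Line3 replicate 2, 5 without Col-0 replicate 1 and 6 without Col-0 replicate 2. In copper economy, the copper and zinc superoxide dismutases CSD2 (103 and 96.3 CPM in MC-Line3, against 59.6 and 33.2 CPM in Col-0, log2 fold change 1.11 ± 0.19 (SE)) and CSD1 (0.86 ± 0.15 (SE)) and their chaperone CCS (0.69 ± 0.10 (SE)) rose. The iron superoxide dismutase FSD1, which replaces them when copper is short, had 1634 and 1690.4 CPM in MC-Line3, against 2404 and 2584 CPM in Col-0 (log2 fold change -0.59 ± 0.07 (SE)), and the copper importer COPT2 had 16.5 and 16.7 CPM in MC-Line3, against 28.1 and 33.2 CPM in Col-0 (log2 fold change -0.88 ± 0.10 (SE)). CSD2 and CSD1 were both lowest in Col-0 replicate 2.

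**Figure D5:**
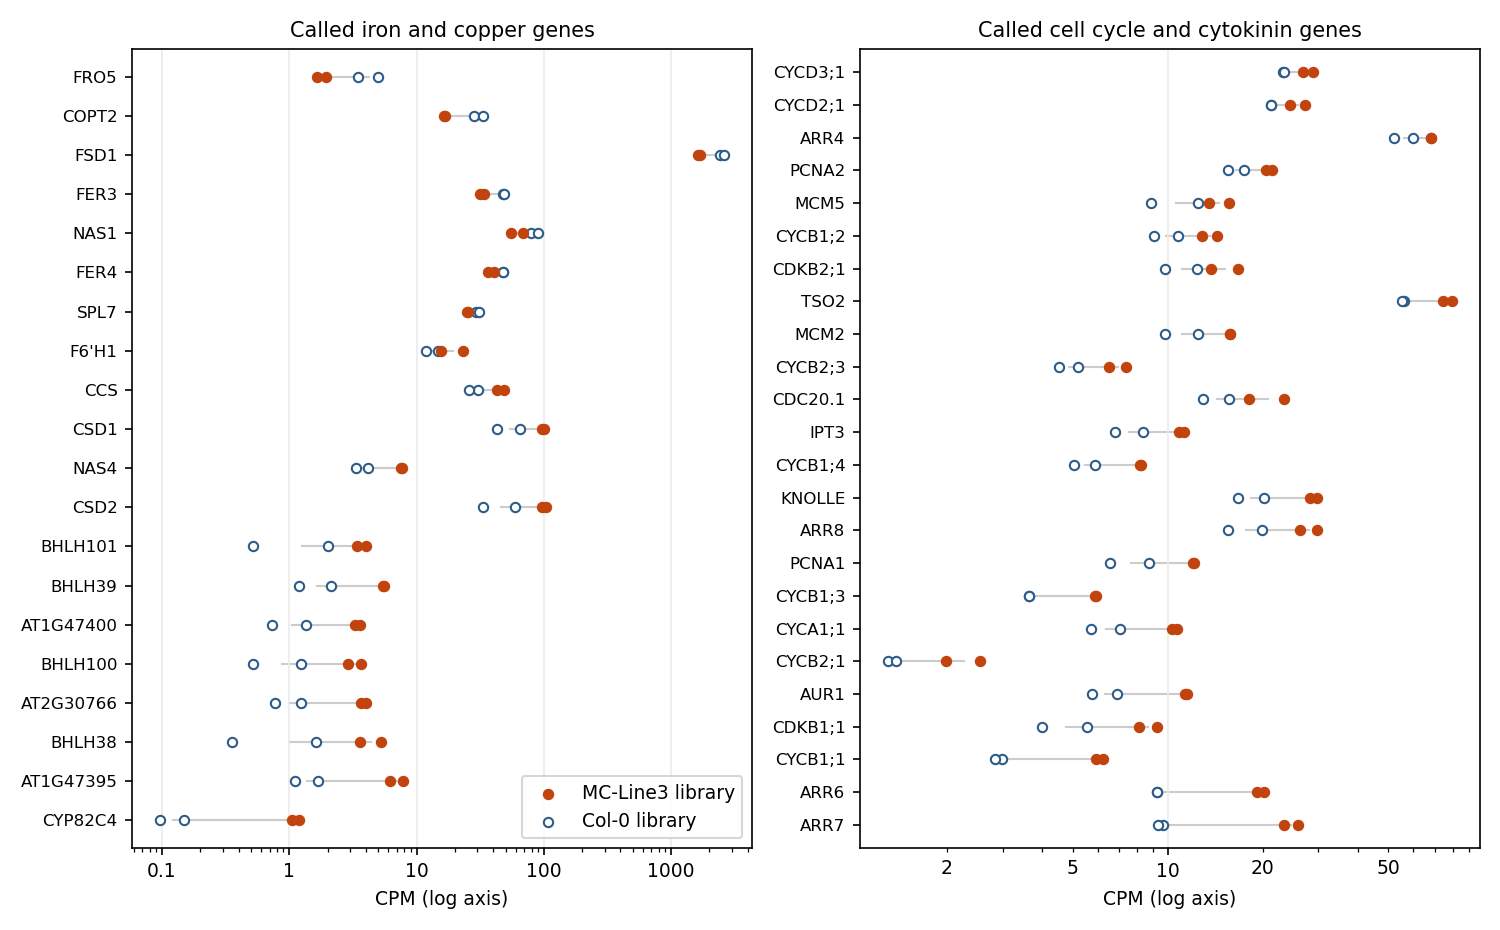
CPM (log axes) of the called iron and copper genes (left) and the called cell cycle and cytokinin genes (right) in each MC-Line3 library (filled) and each Col-0 library (open), sorted by fold change. ARR7 lies at 25.8 and 23.3 CPM in MC-Line3 against 9.68 and 9.32 CPM in Col-0; ferritins and FSD1 are among the genes that are lower in MC-Line3.

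Antenna genes of photosynthesis fell slightly. Of the nuclear genes of the light-harvesting antenna 19 of 21 were downregulated, with a median log2 fold change of -0.27, or 1.21-fold lower. With library size alone 8 were downregulated and the median was -0.15. Without MC-Line3 replicate 1 or 2 the counts were 11 and 10. LHCB2.3 had 527 and 561 CPM in MC-Line3, against 689 and 740.0 CPM in Col-0 (log2 fold change -0.39 ± 0.07 (SE)). LHCB1.1 had 7785 and 7475 CPM in MC-Line3, against 10016 and 10527 CPM in Col-0, though 31.2% of its 31-base words occur elsewhere. Of the nuclear photosystem subunits 2 of 24 were downregulated, with a median of -0.14. That count ranged over 0 without MC-Line3 replicate 2 or either MA-Line1 library, 4 without Col-0 replicate 1 and 12 without Col-0 replicate 2, and was 8 with DESeq2. In chlorophyll metabolism 10 of 17 were downregulated. CHLH, the subunit of magnesium chelatase that binds the porphyrin, had 1395 and 1298 CPM in MC-Line3, against 2182 and 2171 CPM in Col-0 (log2 fold change -0.69 ± 0.07 (SE)). A gene of breakdown fell too, as NYE1, which strips magnesium from chlorophyll as leaves age, had 15 and 14.9 CPM in MC-Line3, against 21.1 and 24.6 CPM in Col-0 (log2 fold change -0.61 ± 0.10 (SE)).

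Transcripts of the plastid genome were 41 of 90 downregulated and 1 upregulated, with a median of -1.18, in libraries made from polyA RNA, where they held 0.0280% to 0.0314% of the counts in MC-Line3 and 0.0484% to 0.0501% in Col-0. Their summed level was 308 and 274 CPM in the MC-Line3 libraries, against 527 and 529 CPM in the Col-0 libraries. The MA-Line1 libraries stood far apart, at 219 and 455 CPM and 0.0232% and 0.0473% of the counts. The level therefore also varied widely between replicates of 1 genotype. The count rested on both MC-Line3 libraries, with 6 downregulated without MC-Line3 replicate 2, 10 without MC-Line3 replicate 1, and up to 57 without another library. In starch metabolism GPT2, which imports glucose phosphate into plastids, had 3.39 and 3.39 CPM in MC-Line3, against 16.8 and 20.1 CPM in Col-0 (log2 fold change -2.45 ± 0.14 (SE)), and the amylases BAM5 (-2.19 ± 0.24 (SE)), BAM1 (-1.23 ± 0.09 (SE)) and BAM3 (-0.91 ± 0.10 (SE)) were downregulated. VTC2, the controlling enzyme of ascorbate synthesis, had 216 and 219 CPM in MC-Line3, against 543 and 680.1 CPM in Col-0 (log2 fold change -1.49 ± 0.10 (SE)).

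Clock genes were downregulated in 12 of 29 cases and upregulated in 0, but 8 were upregulated without Col-0 replicate 1. Of the 12, 9 were higher in Col-0 replicate 2 than in replicate 1. RVE1, a morning factor that drives auxin synthesis, had 16.4 and 16.1 CPM in MC-Line3, against 45.7 and 46.7 CPM in Col-0, a log2 fold change of -1.5 ± 0.08 (SE) (edgeR quasi-likelihood test, adjusted p = 5.7e-07). PRR9 (-1.0 ± 0.13 (SE)), LNK1 (-0.88 ± 0.09 (SE)) and RVE8 (-0.82 ± 0.13 (SE)), all with daytime peaks, were lower, and 41.1% of the 31-base words of PRR9 occur elsewhere. Several evening genes could not be compared in this way, because the Col-0 libraries stood far apart. PRR5 had 22.8 and 22.9 CPM in MC-Line3, against 33.5 and 8.10 CPM in Col-0, FKF1 5.81 and 5.88 CPM in MC-Line3, against 11.2 and 1.78 CPM in Col-0, and GRP7 413 and 482 CPM in MC-Line3, against 374 and 159 CPM in Col-0. In each, both MC-Line3 libraries were close together, and Col-0 replicate 2 lay far below Col-0 replicate 1. None of the 3 was called, and each was picked after its values were seen. Where this difference between the Col-0 libraries comes from was not tested.

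Low-oxygen genes, a list of genes induced by low oxygen and not all known targets of group VII factors, were upregulated in 21 of 43 cases. Another 9 were downregulated, and the median of the list was 0.32 (0.44 with library size alone). ADH1, the alcohol dehydrogenase of fermentation, had 29.5 and 26.0 CPM in MC-Line3, against 10.8 and 10.3 CPM in Col-0, a log2 fold change of 1.39 ± 0.10 (SE). SUS4, which feeds sucrose into glycolysis, had 15.5 and 14.4 CPM in MC-Line3, against 6.10 and 7.21 CPM in Col-0 (log2 fold change 1.17 ± 0.13 (SE)), and AT4G39675 had 17.3 and 15.9 CPM in MC-Line3, against 7.16 and 5.33 CPM in Col-0 (log2 fold change 1.41 ± 0.16 (SE)). FTM1 (AT1G43800), a plastid acyl carrier protein desaturase that the study counts among core low-oxygen genes and that is not on this list, had 58.4 and 54.4 CPM in MC-Line3, against 8.54 and 9.07 CPM in Col-0 (log2 fold change 2.68 ± 0.08 (SE)). PDC2, a pyruvate decarboxylase, and AlaAT1, an alanine aminotransferase, were not called. The steepest decreases in the list were of AT3G23170 (13.9 and 15.3 CPM in MC-Line3, against 61.3 and 80.2 CPM in Col-0, log2 fold change -2.27 ± 0.12 (SE)), the calcium sensor CML38 (-1.39 ± 0.11 (SE)) and PP2-A13 (-1.29 ± 0.10 (SE)). RBOHD, an NADPH oxidase that produces reactive oxygen, had 65.4 and 58.5 CPM in MC-Line3, against 103 and 122 CPM in Col-0 (log2 fold change -0.86 ± 0.09 (SE)). The GCC box AGCCGCC, which ethylene response factors bind, occurred on either strand in 3 of 43 windows and in 1.43% of all. Of the 5 endogenous group VII genes, HRE1 (0.55 ± 0.12 (SE)) and HRE2 (0.89 ± 0.28 (SE)) were upregulated, RAP2.12 (-0.25 ± 0.07 (SE)) and EBP, also known as RAP2.3 (-0.89 ± 0.12 (SE)), downregulated, and RAP2.2 not called. On the log2 scale, the calls of HRE1 (0.50) and HRE2 (0.63) were lost without MC-Line3 replicate 1, and that of HRE2 also without Col-0 replicate 2 (0.65) or either MA-Line1 library (0.89 each).

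Mitochondrial stress genes moved apart. DIC2, a dicarboxylate carrier of the inner membrane, had 25.9 and 26.2 CPM in MC-Line3, against 183 and 220.2 CPM in Col-0, a log2 fold change of -2.95 ± 0.10 (SE) (edgeR quasi-likelihood test, adjusted p = 5.0e-08). OM66, an outer membrane ATPase, had 7.05 and 8.62 CPM in MC-Line3, against 27.7 and 33.6 CPM in Col-0 (log2 fold change -1.97 ± 0.12 (SE)), and AOX1A, the stress-induced alternative oxidase, had 48.4 and 47.0 CPM in MC-Line3, against 84.1 and 66.1 CPM in Col-0 (log2 fold change -0.66 ± 0.10 (SE)). AT2G21640, a marker of oxidative stress, rose to 15.8 and 14.5 CPM in MC-Line3, against 6.07 and 7.38 CPM in Col-0 (log2 fold change 1.17 ± 0.11 (SE)). Heat shock genes were downregulated in 12 of 26 cases (4 without MC-Line3 replicate 1, 7 without either MA-Line1 library and with library size alone) and upregulated in 4 (2 without MC-Line3 replicate 1). HSFB2A, a heat shock factor of the repressor class, had 12.8 and 12 CPM in MC-Line3, against 30.1 and 40.3 CPM in Col-0 (log2 fold change -1.5 ± 0.13 (SE)), whereas ROF2, a co-chaperone, had 37.5 and 31.6 CPM in MC-Line3, against 21.7 and 24.4 CPM in Col-0 (log2 fold change 0.58 ± 0.10 (SE)). Aquaporins were downregulated in 16 of 32 cases (7 without MC-Line3 replicate 2) and upregulated in 2 (4 with library size alone, 0 without MC-Line3 replicate 1), with PIP1B, a water channel of the plasma membrane, at 833 and 801 CPM in MC-Line3, against 1270.3 and 1238 CPM in Col-0 (log2 fold change -0.62 ± 0.07 (SE)).

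Some of the steepest single changes lay outside these groups. AT2G01422, a noncoding RNA of unknown function (chr2:183940-184734), had 808 and 1010 counts in MC-Line3, against 0 and 11 counts in Col-0, and 0.547 and 0.504 CPM in MA-Line1. It was near the limit of detection in Col-0 and well detected in MC-Line3. AT1G30170, a DUF295 protein, had 53 and 84 counts in MC-Line3, against 2 and 2 counts in Col-0. MAF5, a repressor of flowering, had 1.44 and 1.86 CPM in MC-Line3, against 0.167 and 0.113 CPM in Col-0, a log2 fold change of 3.55 ± 0.40 (SE). On the other side, AT1G21529, another noncoding RNA, had no count in MC-Line3 and 1.64 and 2.76 CPM in Col-0, at least 40.6-fold lower in MC-Line3, and 40.9% of its 31-base words occur elsewhere. HSPRO2, annotated by its sugar beet relative, had 287 and 276 CPM in MC-Line3, against 904 and 896 CPM in Col-0 (log2 fold change -1.68 ± 0.07 (SE)).

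Markers of organs and cell types were measured in the same libraries, in which fewer cells of a type and less RNA per cell cannot be told apart. Root hair markers were called in 0 of 10 cases by edgeR, 0 by DESeq2 and 0 at an unadjusted p below 0.05, and summed to 33.3 and 37.7 CPM in the MC-Line3 libraries, against 31.2 and 41.4 CPM in the Col-0 libraries. Endodermis markers were downregulated in 1 of 8 cases (CASP1, log2 fold change -0.41 ± 0.13 (SE)) and summed to 42.0 and 35.1 CPM in the MC-Line3 libraries, against 45.6 and 52.4 CPM in the Col-0 libraries. Of the stomatal lineage, TMM (0.45 ± 0.13 (SE)) and EPF2 (0.82 ± 0.23 (SE)) of 8 markers rose, and the list summed to 63.7 and 67.7 CPM in the MC-Line3 libraries, against 65.3 and 58.6 CPM in the Col-0 libraries. Flower markers summed to 17.4 and 15.4 CPM in the MC-Line3 libraries, against 19.4 and 14.4 CPM in the Col-0 libraries, with SEP1 called (0.222 and 0.177 CPM in MC-Line3, against 0.614 and 1.07 CPM in Col-0). Of 14 seed storage markers 1 was counted well enough to be tested, the oleosin gene OLEO4, which was downregulated (log2 fold change -0.52 ± 0.17 (SE)). Their sum was 4.79 and 4.45 CPM in the MC-Line3 libraries, against 5.56 and 7.35 CPM in the Col-0 libraries. Among senescence markers SAG12 had no count in any of the 4 libraries, and SAG13 (11.7 and 11.4 CPM in MC-Line3, against 29.4 and 42.0 CPM in Col-0, log2 fold change -1.63 ± 0.14 (SE)) and NAP (-1.49 ± 0.10 (SE)) were among 4 of 5 tested markers that were downregulated, while SAG21 rose (500.5 and 426 CPM in MC-Line3, against 371 and 366 CPM in Col-0, log2 fold change 0.33 ± 0.09 (SE)). The senescence list summed to 559 and 484 CPM in the MC-Line3 libraries, against 492 and 516 CPM in the Col-0 libraries. Calls of 6 markers were lost with 1 library left out, namely SAG21 (0.20 without MC-Line3 replicate 1), OLEO4 (-0.32 without Col-0 replicate 2, and without any other 1 library but Col-0 replicate 1), CASP1 (-0.31 without MC-Line3 replicate 2), TMM (0.26 without Col-0 replicate 2), EPF2 (0.62 without Col-0 replicate 2) and SEP1 (-1.92 without MC-Line3 replicate 2, all log2). The part of these levels in the other results was not tested.

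MC-Line3 was also set against MA-Line1 in the same fit, in which the spread was estimated over all 6 libraries. Of all genes tested 4242 (20.0%) were called, 1840 higher in MC-Line3 (8.68%) and 2402 lower in MC-Line3 (11.3%). Rapid stress regulators were lower in MC-Line3 than in MA-Line1 in 23 of 27 cases, and phosphate starvation genes in 19 of 34. Against Col-0, MA-Line1 moved the same way in several lists. Both lines were compared with the same Col-0 libraries, so any deviation of those libraries enters both comparisons, and agreement between them is not independent. In MA-Line1, 23 of 27 rapid stress regulators were downregulated and 0 upregulated. Of the phosphate starvation genes 30 of 34 were downregulated there (median log2 fold change -1.46) and 1 upregulated. JAZ repressors (11 of 12) and antenna genes (20 of 21) were downregulated too, with 0 upregulated. Of the ribosomal genes 196 of 270 were upregulated and 5 downregulated. Cell cycle genes rose in 6 of 24 and fell in 1. The shares over all genes tested are not given for MA-Line1 against Col-0, so these counts of MA-Line1 have no background beside them. RRTF1 had 0.351 and 0.212 CPM in MC-Line3, against 2.38 and 1.48 CPM in MA-Line1, a log2 difference of -2.79 (edgeR quasi-likelihood test, adjusted p = 0.00011). PPsPase1 had 2.02 and 1.84 CPM in MC-Line3, against 19.0 and 17.6 CPM in MA-Line1 (log2 difference -3.25). Salicylic acid genes (15 of 21), sulfate starvation genes (12 of 16), heat shock genes (19 of 26), endoplasmic reticulum chaperones (10 of 13) and genes of serine and tryptophan synthesis (8 of 9) were lower in MC-Line3 too. PBS3 had 2.18 and 1.93 CPM in MC-Line3, against 10.4 and 10.8 CPM in MA-Line1, and APR1 had 103 and 96.4 CPM in MC-Line3, against 218 and 214 CPM in MA-Line1.

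Higher in MC-Line3 than in MA-Line1 were 19 of 24 nuclear photosystem subunits, 9 of 10 root hair markers, 7 of 8 endodermis markers and 7 of 7 genes of the root triterpene clusters. The root hair markers summed to 33.3 and 37.7 CPM in MC-Line3, against 12 and 11.5 CPM in MA-Line1, and the endodermis markers to 42.0 and 35.1 CPM in MC-Line3, against 14.3 and 16.4 CPM in MA-Line1. Iron genes were higher in MC-Line3 in 14 of 31 cases, for example CYP82C4 (1.05 and 1.2 CPM in MC-Line3, against 0.0148 and 0.0522 CPM in MA-Line1). AT2G05510, a glycine-rich protein, had 264 and 239 CPM in MC-Line3, against 32.1 and 32.7 CPM in MA-Line1, a log2 difference of 2.96. Of the ribosomal genes 11 of 270 were higher and 4 lower in MC-Line3, and ARR7 had 25.8 and 23.3 CPM in MC-Line3, against 8.94 and 8.37 CPM in MA-Line1 (log2 difference 1.5). Leaving out MC-Line3 replicate 1 or 2 took the count of all genes called between them to 2345 and 2306, and leaving out MA-Line1 replicate 1 or 2 took it to 2124 and 2126. It was larger without Col-0 replicate 1 or 2, which enter this contrast through the estimate of the spread, the filter on low counts and the scaling.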

How the data were processed

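PolyA RNA of whole seedlings was sequenced as paired-end reads of 100 bases from TruSeq libraries, which do not mark strand, so reads of overlapping genes cannot be told apart. The authors trimmed reads, aligned them to TAIR10 with TopHat2 and counted them with HTSeq, and the deposited values are raw counts per gene for 6 libraries. From these, genes with low counts were removed (filterByExpr), library sizes were scaled by TMM, and 1 mean per genotype was fitted over all 6 libraries with edgeR 4.0.16 (R 4.3.3, limma 3.58.1). The quasi-likelihood test was adjusted over 21206 genes by Benjamini-Hochberg, with a threshold of 0.05, and the script was tested on simulated data. Standard errors come from the F statistic (log2 fold change over its root). Symbols, products and coordinates are those of RefSeq TAIR10.1, which holds 28009 of the 28775 genes counted. Alternatives were other scalings and filters, DESeq2 1.42.0, a test against 1.5-fold, the 4 libraries alone, a replicate block and each library left out.

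The comparison and its 69 gene lists were chosen with earlier results of these data known, and 4 of them (purple acid phosphatases, nucleolar, plastid ribosomal and mitochondrial ribosomal proteins) were added after the values of this comparison were seen. Genes were named by rule: the 15 largest called changes in each direction with at least 1 CPM in the higher genotype and groups that do not overlap, the 10 with the highest CPM past 2-fold in each direction, up to 4 called members per list and direction, members of lists of up to 12 genes, cell type markers and endogenous group VII genes. BHLH100, BHLH101, BHLH39, CBF2, CBF3, FKF1, FRO2, FRU, GDPD1, GRP7, IRT1, MGD2, NLA, PAP17, PAP26, PDC2, PEPC1, PHO1, PHO2, PHR1, PHT1;1, PHT1;4, PRR5, RBOHD, RD29A, SPX4, SQD2, SUS4, ZAT10 and ZAT11 were chosen after their values were seen. Of the genes named with values, ABI1, ADH1, APR1, ARR6, AT1G30170, AT5G48240, AUR1, BAM3, BHLH101, BHLH38, CASP1, CBF3, CDKB1;1, COR15B, CSD1, FER4, FIB2, FKF1, GDPD1, HDA3, HRE1, LHCB2.3, LNK1, MYC2, PAP17, PHR1, PP2-A13, PUB23, RAB18, RRTF1, RVE1, SAG21, SEP1, TCH2, WRKY33 and WRKY40 overlap another annotated gene.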

Additional observations from a re-analysis of the deposited data

How the results depend on the processing

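The direction of every leading list was kept under each scaling. With library size alone as the scaling, 7729 genes were called, 5371 upregulated and 2358 downregulated, 69.5% of them upregulated instead of 46.5%, with 430 upregulated past 2-fold and 8 antenna genes downregulated. Against a threshold of 1.5-fold (glmTreat), 825 genes were called, 163 upregulated and 662 downregulated, with 124 upregulated past 2-fold. The same threshold left 946 genes between MC-Line3 and MA-Line1, 329 higher and 617 lower in MC-Line3. It left 8 low-oxygen genes, 1 cell cycle, 4 ribosomal and 3 nucleolar genes upregulated, and 0 antenna and 4 plastid-encoded genes downregulated. In the MC-Line3 and Col-0 libraries alone, 11 antenna genes were downregulated, and the cause was not tested in any of these.

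With 1 library left out, 3536 to 7476 genes were called, 1539 to 3513 upregulated and 1997 to 3963 downregulated, with 184 to 340 and 592 to 929 past 2-fold. Between MC-Line3 and MA-Line1 the range was 2124 to 6074, with 740 to 2738 higher and 1360 to 3339 lower in MC-Line3. The ranges of upregulated members were 16 to 21 for low-oxygen, 7 to 14 for iron, 10 to 17 for cell cycle, 123 to 204 for ribosomal and 27 to 40 for nucleolar genes. The ranges of downregulated members were 28 to 31 for phosphate starvation genes, 25 to 26 for rapid stress regulators, 8 to 8 for JAZ repressors, 10 to 19 for antenna and 6 to 57 for plastid-encoded genes. SEX1 (-0.03) ranged over -0.29 to 0.25 and PI (0.12) over -0.51 to 1.17, with both signs and both not called.

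The labels state no shared day or batch for libraries with the same replicate number. Deviations from the means correlated at 0.03 between MC-Line3 and Col-0 over 21206 genes, which are not independent. No pairing showed over all genes, but this value cannot exclude a batch that touched part of them. With the replicate block, 6215 genes were called, 2863 upregulated and 3352 downregulated. Counts were 6571 with the size factors of DESeq2, 6232 with DESeq2, 5215 in the 4 libraries alone, 7022 with any count and 6481 with at least 10 counts in every library. At these depths genes under a few counts per library limit what could be tested, and 4633 counted genes had no count in the 4 libraries.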

Other observations

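Auxin and brassinosteroid genes, nitrate assimilation and indole defence were measured in the same comparison. Of the Aux/IAA repressors 2 of 28 were downregulated and 0 upregulated, whereas with library size alone 1 was downregulated and 4 upregulated. Without Col-0 replicate 1 there were 6 downregulated, and without any 1 MC-Line3 or MA-Line1 library there was 1. The repressors include IAA1 (8.19 and 8.34 CPM in MC-Line3, against 12.7 and 15.9 CPM in Col-0, log2 fold change -0.79 ± 0.13 (SE)). Of the SAUR genes, which promote cell elongation, 8 of 66 were upregulated and 7 downregulated, against 13 and 4 with library size alone, and 3 were upregulated without either MC-Line3 library. AT4G38840 had 34.2 and 31.3 CPM in MC-Line3, against 16.5 and 17 CPM in Col-0 (log2 fold change 0.97 ± 0.09 (SE)), whereas AT3G12830 had 4.94 and 4.63 CPM in MC-Line3, against 19.0 and 20.4 CPM in Col-0 (log2 fold change -2.04 ± 0.11 (SE)). Brassinosteroid genes were downregulated in 3 of 9 cases, with the receptor BRI1 at 142 and 124 CPM in MC-Line3, against 192 and 192 CPM in Col-0 (log2 fold change -0.53 ± 0.08 (SE)), and upregulated in 2, with the synthesis enzyme DWF4 at 17.1 and 13.5 CPM in MC-Line3, against 8.65 and 9.24 CPM in Col-0 (log2 fold change 0.77 ± 0.13 (SE)). The counts became 5 downregulated without Col-0 replicate 2 and 1 upregulated without either MC-Line3 library. Of the genes of nitrate response and assimilation 7 of 24 were downregulated (3 without MC-Line3 replicate 2, 12 without Col-0 replicate 2) and 1 upregulated (4 with library size alone, 5 without Col-0 replicate 1, 3 without Col-0 replicate 2). The nitrate reductase NIA2 had 1419 and 1311 CPM in MC-Line3, against 2142 and 2060.0 CPM in Col-0, a log2 fold change of -0.62 ± 0.07 (SE).

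Camalexin and indole glucosinolate genes were split, with 4 of 14 upregulated and 4 downregulated. Without either MC-Line3 library 2 were upregulated, and downregulated members numbered 2 without MC-Line3 replicate 2 or with library size alone and 7 without Col-0 replicate 1. CYP71A12, which makes an intermediate of indole phytoalexins, had 36.9 and 28.4 CPM in MC-Line3, against 11.6 and 8.52 CPM in Col-0 (log2 fold change 1.70 ± 0.15 (SE)), with 18.2% of its 31-base words found elsewhere. MYB51, a regulator of indole glucosinolates, had 29.7 and 31.7 CPM in MC-Line3, against 46.9 and 52.2 CPM in Col-0 (log2 fold change -0.69 ± 0.08 (SE)). Of the cytochrome P450 genes 65 of 182 were downregulated and 12 upregulated (21 with library size alone, 6 without MC-Line3 replicate 1). Of the UDP-glycosyltransferases 36 of 117 were downregulated and 7 upregulated, against 21 and 18 with library size alone. Leaving out MC-Line3 replicate 1 or 2 gave 22 and 18 downregulated and 3 and 2 upregulated, and leaving out Col-0 replicate 1 gave 16 upregulated. Over all genes tested the shares were 16.7% downregulated and 14.5% upregulated.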
